A study of Mus musculus with 12 samples.

Results

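Major urinary proteins (Mups) are small secreted lipocalins of mouse liver, encoded by a cluster of closely related genes. Liver releases them into blood, they pass into urine, and there they carry pheromones and act as scent signals between mice. Their transcription in hepatocytes is stronger in males and is known to need pulsatile growth hormone acting through the growth hormone receptor, JAK2 and STAT5b, with further input from liver factors such as HNF4A and ZHX2. The 10 genes described here are the rows whose symbol is Mup1, Mup2, Mup3, Mup7, Mup9, Mup11, Mup12, Mup17, Mup20 or Mup21, 10 of 24532 gene rows. All 10 passed the low-count filter that left 13379 genes for testing.

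Liver RNA was sequenced in 12 libraries from mice aged 20 wk on the mixed strain C57BL/6x129S6/SvEv. The control group, Het, is labelled only by that genotype, KO mice were Atp7b-/- and KO-Drug mice were Atp7b-/- given feed with an LXR (liver X receptor) agonist, each with 4 libraries. Atp7b encodes a copper-exporting ATPase whose loss gives the copper overload of Wilson disease, and the labels name no restriction of the knockout to a tissue. The labels do not give sex, litter, the agonist's name, dose or duration, or the deleted part of Atp7b.

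Library totals ran from 16535938 to 28329751 counts. The level of a gene is given as CPM, counts per 1e6 counts on library sizes scaled by TMM (the trimmed mean of M-values). The targeted gene, Atp7b, lay at 9.90 to 16.2 CPM in Het, 1.68 to 2.71 CPM in KO and 1.27 to 3.49 CPM in KO-Drug. Xist, which is made from the inactive X chromosome, reached 81.7 CPM in library KO 5 and 17.8 CPM in library KO 6, while the remaining 10 had at most 0.425 CPM. Y-linked Ddx3y was at 0.379 CPM in library KO 5 and 64.4 CPM in library KO 6, and elsewhere at 79.4 CPM or more. KO 5 thus had Xist with almost no Ddx3y, and KO 6 had both. Why KO 6 had both, and whether it came from 1 animal, was not tested. Since Mup genes are male-biased, several results that rest on KO 5 or KO 6 are also given without that pair, that is with KO 2 and KO 4 alone. TMM put the median log2 change of all tested genes at 0.02 in KO vs Het, and scaling by total counts put it at 0.54. For KO-Drug vs KO the medians were -0.02 and -0.36, and all changes below are relative to TMM unless stated.

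The genes lie on chromosome 4, on the minus strand (GRCm38.p6, the mm10 build, RefSeq). From one end of the cluster to the other they run Mup7 (chr4:60066469-60070475), Mup2 (chr4:60135913-60139977), Mup9 (chr4:60418046-60422085), Mup1 (chr4:60498012-60501960), Mup11 (chr4:60658466-60662432) and Mup12 (chr4:60737381-60741416). Farther along lie Mup17 (chr4:61591929-61595865), Mup20 (chr4:62011337-62054143), Mup3 (chr4:62083476-62087317) and Mup21 (chr4:62147832-62150841). The span of Mup7 overlaps the pseudogene Mup-ps1, and that of Mup20 holds Mup-ps21.

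How alike the genes are decides how far their counts can be told apart. Over the coding sequence, Mup2, Mup7, Mup9, Mup11, Mup12 and Mup17 were 98.7% to 99.63% identical to Mup1. Mup20 was 90.61% identical, with 51 differing positions in 543, Mup21 84.22% and Mup3 82.94%. The 60 coding bases from base 127 to base 186 of Mup1 are shown because Mup20 differs from Mup1 most densely there. Capitals mark bases that differ from Mup1.
Mup1: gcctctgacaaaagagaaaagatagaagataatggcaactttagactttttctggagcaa
Mup7: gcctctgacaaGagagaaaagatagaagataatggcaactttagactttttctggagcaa
Mup17: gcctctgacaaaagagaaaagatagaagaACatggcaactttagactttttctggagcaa
Mup20: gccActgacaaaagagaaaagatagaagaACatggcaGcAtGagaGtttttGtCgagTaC
Mup3: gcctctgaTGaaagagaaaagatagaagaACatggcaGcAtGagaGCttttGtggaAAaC

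In this stretch Mup2, Mup9, Mup11 and Mup12 have the sequence of Mup1, and Mup21 has that of Mup3. Mup7 differs from Mup1 at 1 base, Mup17 at 2, Mup20 at 11 and Mup3 at 13. A read from this stretch can therefore separate Mup20 or Mup3 from Mup1, but not Mup1 from Mup2, Mup9, Mup11 or Mup12. Over the whole transcript, the share of 50-base words that occur in no other annotated transcript (GENCODE M21) was 83.4% for Mup3, 80.7% for Mup21, 49.5% for Mup20 and 21.9% for Mup17. It was 14.6% for Mup12, 11% for Mup11, 7.85% for Mup9, 5.24% for Mup1, 3.64% for Mup7 and 0% for Mup2. How the authors' counting divided shared reads is not given in the sources used here. Values of Mup1, Mup2, Mup7, Mup9, Mup11, Mup12 and Mup17 as single genes are uncertain for this reason, and the sum over the 10 genes is given first.

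The summed Mup level was high in Het, lowest in KO and intermediate in KO-Drug. In Het libraries 1 to 4 the sum was 77237, 127668, 90628 and 79671 CPM, in KO 2, 4, 5 and 6 it was 8820, 7761, 3286 and 11130 CPM, and in KO-Drug 1 to 4 it was 11648, 28454, 19791 and 21184 CPM. No 2 groups overlapped, although KO-Drug 1 lay only just above KO 6. The Het mean was 93801 ± 23317 CPM, the KO mean 7749 ± 3291 CPM and the KO-Drug mean 20269 ± 6889 CPM (SD, n = 4 each). The mean was thus 12.1-fold lower in KO than in Het and 4.63-fold lower in KO-Drug than in Het, while KO-Drug stood 2.62-fold above KO. As a share of all counts the 10 genes took 7.88 ± 1.32% in Het, 0.939 ± 0.374% in KO and 1.95 ± 0.642% in KO-Drug (n = 4 each). No p-value is given for the sum, since its members were chosen with results known.

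**Figure D1:**
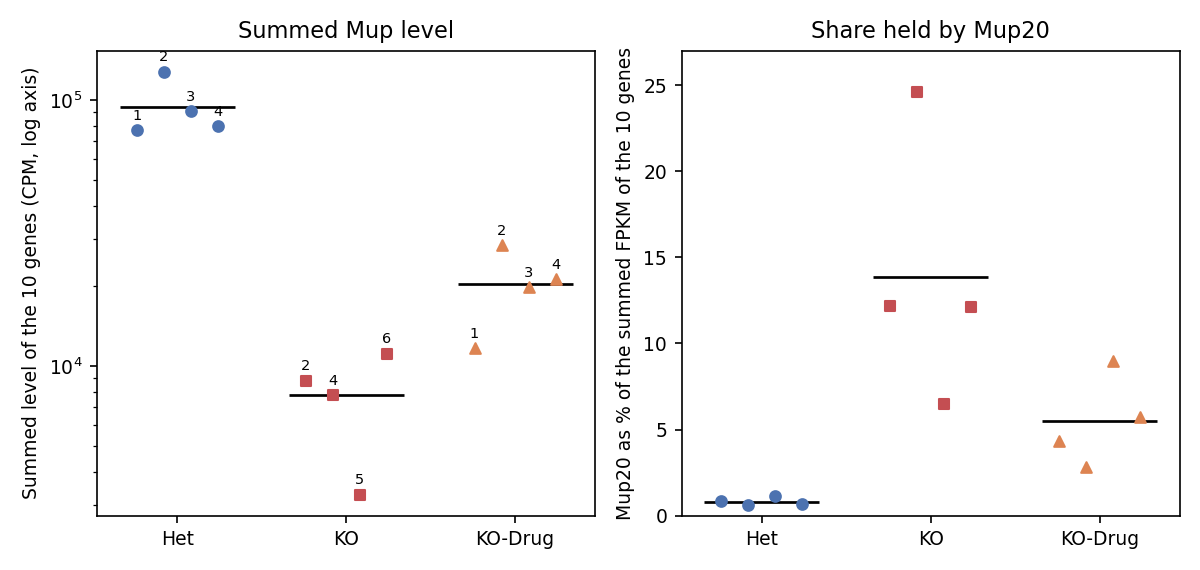
Left, summed level of the 10 Mup genes in each library (CPM, log axis), with replicate numbers above the points. Right, Mup20 as a percentage of the summed FPKM. Points are libraries, horizontal lines are means of 4. On the left the KO libraries lie between 3286 and 11130 CPM, below every Het and KO-Drug library, and on the right the Het libraries lie at 1.17% or less, below every other library.

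The Mup level was also low beside other hepatocyte products. A list of 23 other abundant secreted liver proteins summed to 221662 ± 43391 CPM in Het, to 141878 ± 18371 CPM in KO and to 165473 ± 13584 CPM in KO-Drug (SD, n = 4 each). Per 100 counts of those genes, the Mup genes held 47.8, 50.7, 35.5 and 36.5 counts in Het 1 to 4. They held 6.43, 6.49, 2.23 and 6.82 in KO 2, 4, 5 and 6, and 6.94, 17.9, 10.8 and 13.9 in KO-Drug 1 to 4. On this relative measure the KO mean was 7.76-fold below Het and the KO-Drug mean 2.26-fold above KO, again with no overlap, KO-Drug 1 and KO 6 being nearly level. These are whole-liver values, and the part of hepatocyte number and of Mup RNA per hepatocyte in them was not tested. On the authors' FPKM, which divide by total fragments, the summed KO-Drug mean was 2.05-fold above KO and the groups overlapped.

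KO vs Het addresses what loss of Atp7b does to these transcripts. In edgeR's quasi-likelihood test with Benjamini-Hochberg adjustment over all tested genes, 9 of the 10 genes fell and Mup20 was not called. Of all tested genes, 40.7% were called in this comparison and 17.7% were called lower. For the same 9 genes every KO library lay below every Het library, a pattern seen in 17.1% of tested genes, and 22.2% showed the opposite one. The median log2 change of the 10 genes was -3.90, beside 0.02 over all tested genes. Both the count and the 9 genes' non-overlap are values of a family whose members share reads, so they are not 9 independent observations.

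Mup1, Mup2, Mup7, Mup9 and Mup12 fell by between 9.39-fold (Mup9) and 17.05-fold (Mup7). Mup11 and Mup17, which also share most of their coding sequence with Mup1, fell by other amounts and are given further on. Mup1 stood at 16741, 27138, 22920 and 19821 CPM in Het 1 to 4 and at 1816, 1441, 688 and 2412 CPM in KO 2, 4, 5 and 6. All KO libraries were far below all Het libraries, and KO 5 was the lowest. The change of Mup1 was -3.77 on the log2 scale (SE 0.39, adjusted p = 1.46e-05 by edgeR). Mup7, which shares nearly all of its sequence with other Mup transcripts, stood between 14957 and 26622 CPM in Het and between 447 and 1846 CPM in KO, a log2 change of -4.09 (SE 0.45). Mup2 changed by -3.85 (SE 0.39), Mup12 by -3.95 (SE 0.42) and Mup9 by -3.23 (SE 0.36). These 3 also had their lowest KO value in KO 5.

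The genes whose reads can mostly be told apart showed the same direction. Mup3, in which most 50-base words are unique, stood at 7611, 8596, 8784 and 6506 CPM in Het 1 to 4 and at 518, 470, 270 and 773 CPM in KO 2, 4, 5 and 6. It fell 15.5-fold (log2 -3.95, SE 0.43, adjusted p = 2.16e-05 by edgeR). Mup21 stood at 527, 650, 676 and 363 CPM in Het and at 34.5, 18.7, 16.5 and 67.5 CPM in KO, in the same order of libraries. It fell 16.2-fold (log2 -4.01, SE 0.55, adjusted p = 0.000139 by edgeR). In neither gene did the groups overlap. With KO 2 and KO 4 alone, 9 of the 10 genes were again lower than in Het. Over all genes that fit gave 4842 calls in either direction.

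In KO, Mup17 and Mup11 were the lowest of the falling genes. Mup17 stood between 21.6 and 28.3 CPM in Het and at 9.0, 4.66, 3.03 and 7.81 CPM in KO 2, 4, 5 and 6. Its fall was the smallest of the 9 called genes, 4.19-fold (log2 -2.07, SE 0.29, adjusted p = 0.000157 by edgeR). Mup11 differed within Het far more than any other member: Het 1 and Het 2 held 4120 and 7050 CPM, Het 3 and Het 4 held 21.4 and 28.5 CPM. The 4 KO libraries held 11.02, 3.03, 1.49 and 2.87 CPM, below all Het libraries. The log2 change of -9.24 (SE 1.76, adjusted p = 0.00126 by edgeR) thus averages libraries that lie 2 orders of magnitude apart, and with sample weights in limma voom it was -5.99 with an adjusted p of 0.0667. Without Het 2 it was -8.23 and without KO 2 it was -10.16.

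Mup2, which had no unique word, was also higher in Het 1 and Het 2, at 12293 and 20317 CPM, than in Het 3 and Het 4, at 8739 and 7675 CPM. Summed over Mup1, Mup2 and Mup11 the 4 Het libraries stood at 33154, 54505, 31680 and 27525 CPM. The sum over these 3 genes spanned 1.98-fold within Het, where Mup11 alone spanned 329-fold, Mup2 alone 2.65-fold and Mup1 alone 1.62-fold. Mup1 and Mup2 make up most of this sum, so its narrower span does not show how reads were assigned. Mup2 and Mup11 together stood at 16413, 27367, 8760 and 7704 CPM in Het 1 to 4. That sum spanned 3.55-fold, more than Mup2 alone. Whether Mup11 differs between these animals or reads were assigned differently between libraries was not tested.

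**Figure D2:**
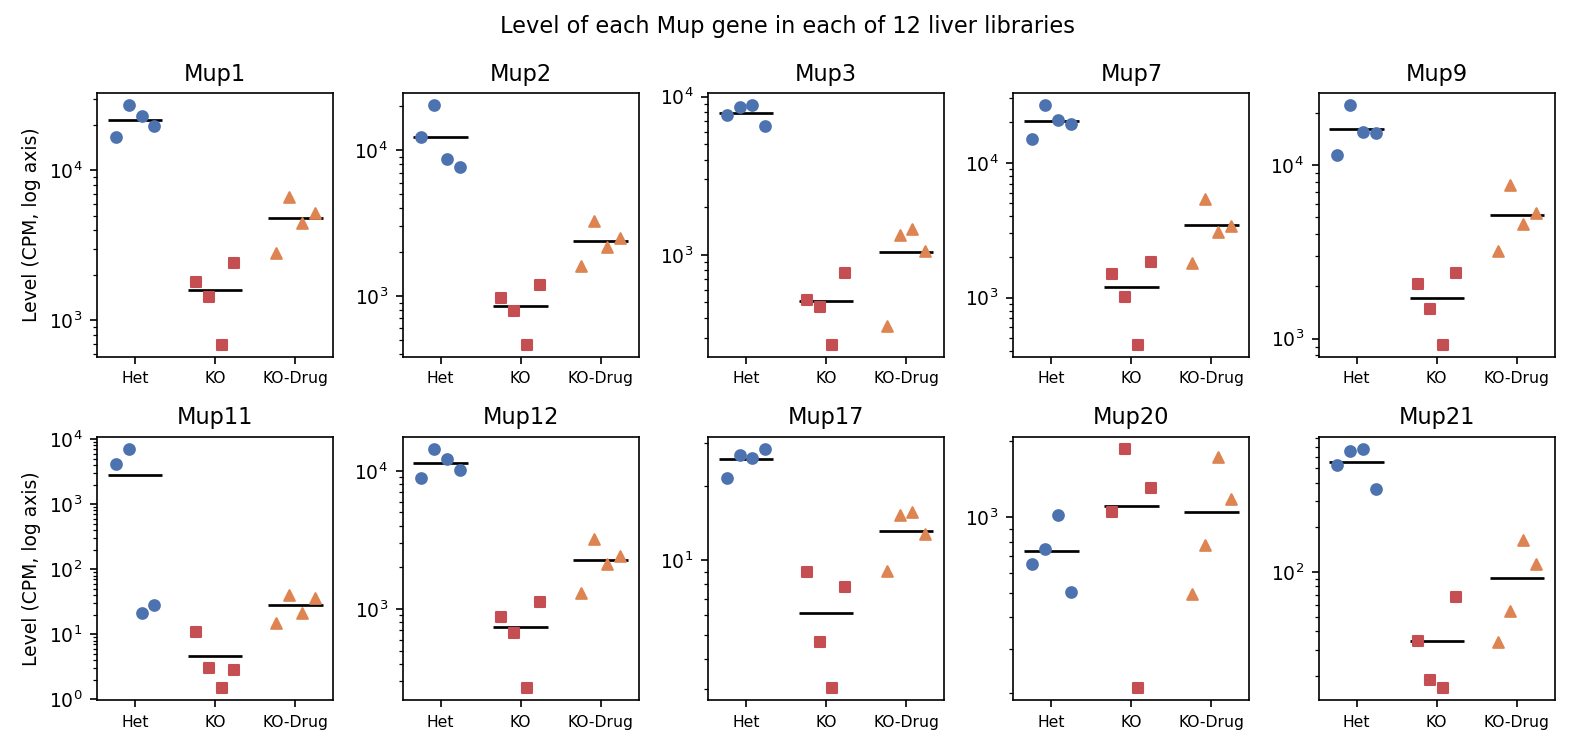
Level of each of the 10 Mup genes in each library (CPM, log axes that differ between panels). Points are libraries and horizontal lines are means of 4. In every panel but that of Mup20 the 4 KO libraries lie below the 4 Het libraries, and for Mup11 the Het libraries fall into a pair near 4120 to 7050 CPM and a pair near 21.4 to 28.5 CPM.

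Mup20, also called darcin, is a male pheromone protein that draws females to male scent marks. It stood at 651, 750, 1022 and 503 CPM in Het 1 to 4, at 1048, 1868, 209 and 1311 CPM in KO 2, 4, 5 and 6, and at 495, 777, 1731 and 1183 CPM in KO-Drug 1 to 4. The 3 groups overlapped: KO held both the highest value, in KO 4, and the lowest, in KO 5, which is also the library with high Xist and almost no Ddx3y. The log2 change in KO vs Het was 0.60 (SE 0.51, adjusted p = 0.375 by edgeR). Without KO 5 it was 0.95 (SE 0.38, adjusted p = 0.0634), and with KO 2 and KO 4 alone it was 0.93 (adjusted p = 0.120). Under total-count scaling it was 1.15 (adjusted p = 0.0668), so no setting tried called Mup20, and the values do not show that it was the same in both groups.

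The make-up of the Mup signal differed between the groups. Levels of different genes are compared on FPKM, fragments per kilobase and 1e6 fragments, which divide by gene length. In Het the order was Mup1 (15852 ± 1624 FPKM), Mup7 (13826 ± 1935), Mup9 (12243 ± 2296), Mup2 (9761 ± 4525), Mup12 (8669 ± 965) and Mup3 (5896 ± 683), as mean and SD of 4 libraries. Neighbours from Mup1 to Mup12 lay within 1 SD of each other or close to it, while Mup3 stood below Mup12 by more than either SD. Mup11 followed at 2095 ± 2445 FPKM, then Mup20 at 557 ± 136 FPKM, Mup21 at 496 ± 107 FPKM and Mup17 at 19.7 ± 1.80 FPKM. Mup20 and Mup21 did not differ beyond their spread.

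In KO, Mup9 (1903 ± 649 FPKM) and Mup1 (1687 ± 708 FPKM) were the highest, within their spread of each other, and Mup20 (1245 ± 814 FPKM) came next. Mup7 (1179 ± 554 FPKM), Mup2 (929 ± 304 FPKM), Mup12 (815 ± 377 FPKM) and Mup3 (548 ± 202 FPKM) followed, each within 1 SD of its neighbour. Mup21 (43.9 ± 27.98 FPKM) lay below all of these, and Mup17 (6.75 ± 2.85 FPKM) and Mup11 (4.93 ± 4.59 FPKM) were the lowest and did not differ beyond their spread. Mup20 thus moved from a place below Mup3 to one beside Mup1 and Mup7.

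Mup20 held 0.860%, 0.599%, 1.17% and 0.655% of the summed FPKM in Het 1 to 4. It held 12.2%, 24.6%, 6.51% and 12.1% in KO 2, 4, 5 and 6, and 4.36%, 2.81%, 8.97% and 5.74% in KO-Drug 1 to 4. Every KO and KO-Drug library was above every Het library, KO 5 included, while KO and KO-Drug overlapped. Per 100 FPKM of Mup1, Mup20 stood between 2.64 and 4.63 FPKM in Het, between 31.6 and 135 in KO and between 12.1 and 40.3 in KO-Drug. Left out of the sum, Mup20 made the KO mean 14.0-fold lower than Het in place of 12.1-fold. No test of the difference between Mup20 and the other members was run.

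**Figure D3:**
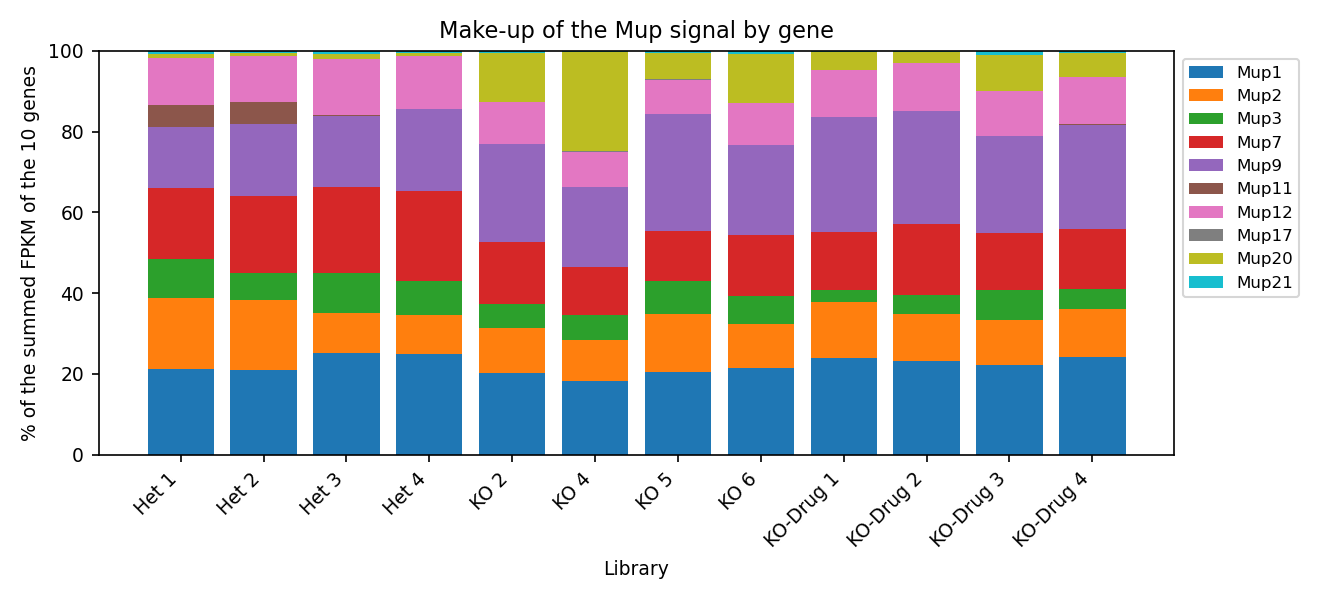
Share of the summed FPKM of the 10 Mup genes held by each gene, 1 bar per library, each bar adding to 100%. The band of Mup20 is at most 1.17% in Het and 24.6% in KO 4, and the band of Mup11 is visible in Het 1 and Het 2 (5.27% and 5.46%) but not in Het 3 or Het 4.

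KO-Drug vs KO addresses what the LXR agonist changes in the knockout liver. By edgeR's quasi-likelihood test, 6 of the 10 genes were higher in KO-Drug, 0 were lower and 4 were not called. Of all tested genes, 19.8% were called in this comparison and 8.8% were called higher. For Mup1, Mup2, Mup9, Mup11, Mup12 and Mup17 every KO-Drug library lay above every KO library, a pattern seen in 11.4% of tested genes. The median log2 change of the 10 genes was 1.501, beside -0.02 over all tested genes. Most 50-base words of the 6 called genes are shared with other transcripts. The count ran from 4 without KO 4 to 8 without KO 6 or KO-Drug 1. With KO 2 and KO 4 alone it was 7, where the fit gave 2661 calls in either direction over all genes.

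Mup1 stood at 2813, 6675, 4463 and 5183 CPM in KO-Drug 1 to 4, against 688 to 2412 CPM in KO. It rose 3.01-fold (log2 1.59, SE 0.36, adjusted p = 0.00891 by edgeR). Mup9 stood at 3215, 7648, 4590 and 5273 CPM in KO-Drug and between 922 and 2389 CPM in KO, with a rise of 3.02-fold (log2 1.60, SE 0.34, adjusted p = 0.00631). In both genes KO-Drug 1 was the lowest and KO-Drug 2 the highest of their group, and neither overlapped KO. Mup12 rose by 1.62 on the log2 scale (SE 0.38, adjusted p = 0.0113), Mup2 by 1.48 (SE 0.36, adjusted p = 0.0123) and Mup17 by 1.11 (SE 0.29, adjusted p = 0.0174). Mup7 rose by 1.52 (SE 0.41, adjusted p = 0.0214) although KO-Drug 1, at 1807 CPM, lay below KO 6 at 1846 CPM.

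The calls of Mup7 and Mup17 rested on single libraries. For Mup7 the adjusted p was 0.0650 without KO 4 and 0.0626 without KO-Drug 2. For Mup17 it was 0.0597 without KO 4 and 0.0525 without KO-Drug 3. The log2 changes stayed at 1.44 and 1.21 for Mup7 and at 0.99 and 1.01 for Mup17.

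The separable genes did not pass the test. Mup3 stood at 353, 1330, 1456 and 1056 CPM in KO-Drug 1 to 4, against 270 to 773 CPM in KO, a log2 change of 1.05 (SE 0.38, adjusted p = 0.0720 by edgeR). KO-Drug 1 lay within the KO range and the other 3 lay above it. Without KO-Drug 1 the log2 change was 1.34 (adjusted p = 0.00813), and without KO 6 it was 1.32 (adjusted p = 0.0433). Mup21 stood at 33.8, 54.8, 163 and 113 CPM in KO-Drug and between 16.5 and 67.5 CPM in KO, with a log2 change of 1.41 (SE 0.50, adjusted p = 0.0627). Without KO-Drug 1 its adjusted p was 0.0230, without KO 6 0.0167, and with KO 2 and KO 4 alone 0.0448.

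Mup11 stood at 15.1, 40.7, 21.1 and 36.1 CPM in KO-Drug, above all KO libraries and at the level of Het 3 and Het 4. Its log2 change of 2.60 had an SE of 1.33 and an adjusted p of 0.189 (edgeR). Mup20 changed by -0.08 (SE 0.51, adjusted p = 0.928), and KO-Drug lay within the range of KO.

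KO-Drug vs Het shares its groups with the other 2 comparisons and so adds no independent evidence. By edgeR's quasi-likelihood test 9 of the 10 genes were lower in KO-Drug than in Het and Mup20 was not called, where 21.4% of all tested genes were called and 8.45% were called lower. Groups did not overlap for 8 genes, a pattern of lower values seen in 11% of tested genes, and the median log2 change was -2.35. Mup1 was 4.53-fold lower (log2 -2.18, SE 0.36, adjusted p = 0.000906), Mup3 7.51-fold lower (log2 -2.91, SE 0.41, adjusted p = 0.000235) and Mup21 6.06-fold lower (log2 -2.60, SE 0.52, adjusted p = 0.00312). Mup17 had the smallest fall, -0.96 (SE 0.28, adjusted p = 0.0259), and lost its call without Het 2, Het 3, Het 4, KO-Drug 1 or KO-Drug 4, with adjusted p from 0.0515 to 0.0729. Mup11 overlapped between KO-Drug and Het, and its log2 change of -6.63 (SE 1.57, adjusted p = 0.00892) had an adjusted p of 0.188 with sample weights in limma voom and was -5.62 without Het 2. Mup20 changed by 0.52 (SE 0.51, adjusted p = 0.531).

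**Figure D4:**
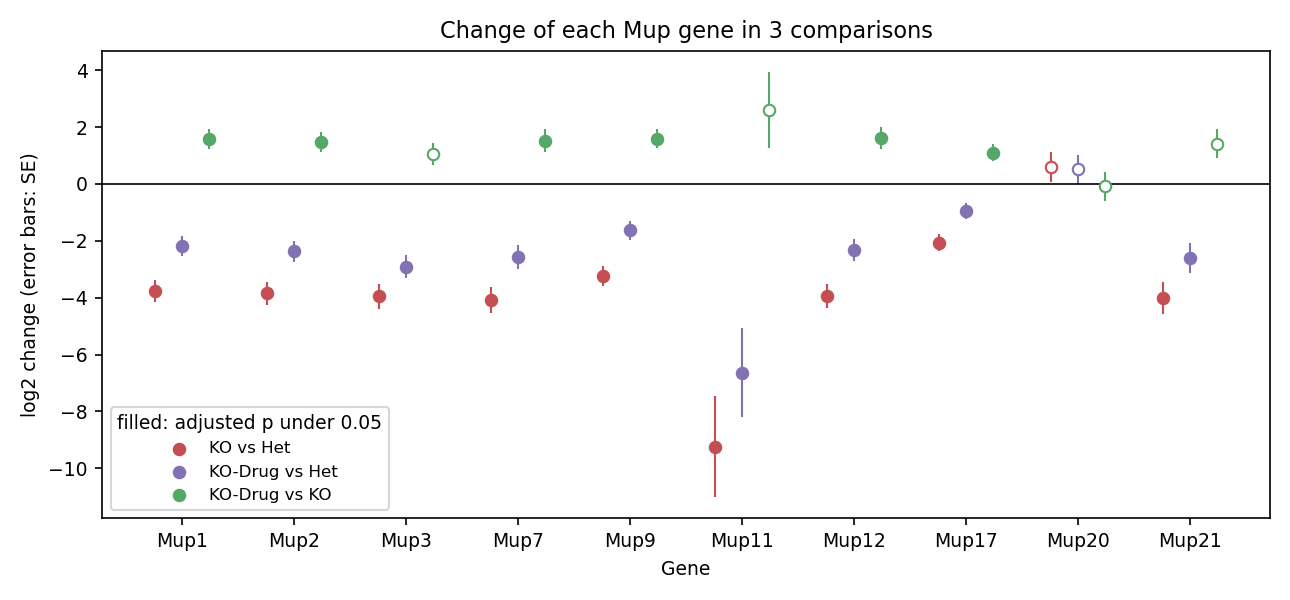
Change of each Mup gene on the log2 scale in 3 comparisons that share groups (error bars, SE of the edgeR fit). Filled points have an adjusted p under 0.05. In KO vs Het, 9 genes lie between -9.24 and -2.07 and Mup20 at 0.60, and in KO-Drug vs KO the other 9 genes lie between 1.05 and 2.60 and Mup20 at -0.08.

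Upstream sequence was looked up because the members moved together. RefSeq promoter entries (GRCm38.p6) were found for 7 of the 10 genes, and not for Mup1, Mup12 or Mup20. Mup20, the member that was not called, is therefore not compared here. A block of 70 bases upstream of the Mup9 start was placed in each other gene where it matched best without gaps. Its distance from the start thus differs between genes. The block was identical in Mup2, Mup9 and Mup11, differed from Mup9 at 1 base in Mup7 and in Mup17, at 7 bases in Mup3 and at 10 in Mup21. Mup9, Mup3 and Mup21 are shown as the common form and the most divergent ones, all on the minus strand, with capitals where a base differs from Mup9. They lie at chr4:60422133-60422202, chr4:62087441-62087510 and chr4:62150959-62151028.
Mup9: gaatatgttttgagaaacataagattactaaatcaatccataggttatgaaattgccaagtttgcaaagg
Mup3: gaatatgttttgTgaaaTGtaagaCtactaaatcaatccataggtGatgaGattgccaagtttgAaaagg
Mup21: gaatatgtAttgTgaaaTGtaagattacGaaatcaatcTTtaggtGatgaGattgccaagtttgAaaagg

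The STAT5-type motif TTCNNNGAA, searched on both strands of the 300-base promoter windows, was in 0 of the 7 entries and in 8.47% of 27025 promoters of the same length. The related spacing TTCNNNNGAA was in 2 of the 7, Mup7 and Mup11, and in 6.99% of all promoters. These windows need not be upstream sequence alone. That of Mup9 begins at chr4:60422202 and, on the minus strand, runs past the gene's start at chr4:60422085 into the gene. A match or its absence describes these letters in this window only.

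The growth hormone pathway and the other regulators of Mup transcription were read as a list of 25 genes, of which 24 were tested. In KO vs Het 12 were called lower and 0 higher by edgeR's quasi-likelihood test, with a median log2 change of -0.76 beside 0.02 over all tested genes. Among all tested genes 17.7% were called lower and 23% higher. Under total-count scaling 5 were lower and 5 higher, so the direction of the list depends on the scaling. That scaling called 7355 of 13379 tested genes in either direction, with a median log2 change of 0.54. The growth hormone receptor Ghr stood at 992, 822, 797 and 821 CPM in Het 1 to 4 and at 331, 220, 336 and 365 CPM in KO 2, 4, 5 and 6, with no overlap. It fell 2.74-fold (log2 -1.45, SE 0.21, adjusted p = 0.000171).

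Stat5b, the main STAT of this pathway in male liver, stood between 62.3 and 91.4 CPM in Het and between 39.5 and 51.5 CPM in KO (log2 -0.68, SE 0.15, adjusted p = 0.00281 by edgeR). This fall depended on the scaling: under total-count scaling the log2 change of Stat5b was -0.15 (adjusted p = 0.382 by edgeR), and on log2(FPKM + 0.1) it was -0.12 (adjusted p = 0.502 by limma). Foxa1, a pioneer factor of liver chromatin, fell by 1.49 on the log2 scale (SE 0.26), Hnf4a, a core hepatocyte factor, by 0.93 (SE 0.13), and Rxra, the shared partner of nuclear receptors, by 0.81 (SE 0.13). Under total-count scaling these 3 changes were smaller, at -0.97 for Foxa1, -0.41 for Hnf4a and -0.28 for Rxra, and Rxra was no longer called (adjusted p = 0.0641 by edgeR). Zhx2, known for strain differences in Mup expression, changed by -0.32 (SE 0.16, adjusted p = 0.129) and was not called. Bcl6, a repressor that favours male-biased expression, changed by -1.40 (SE 0.49, adjusted p = 0.0361), with Het 4 at 57.4 CPM far above the other 3 Het libraries. Without Het 4 the log2 change of Bcl6 was -0.85 (adjusted p = 0.155), and under total-count scaling it was -0.89 (adjusted p = 0.133).

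In KO-Drug vs KO 3 of the 24 genes were called higher and 0 lower, with a median log2 change of 0.11, and under total-count scaling 0 were higher and 4 lower. Under TMM 8.8% of all tested genes were called higher and 11% lower. Total-count scaling called 4256 of 13379 in either direction, with a median log2 change of -0.36. Ghr stood at 337, 630, 532 and 450 CPM in KO-Drug 1 to 4, KO-Drug 1 lying within the KO range. Its rise of 0.64 (SE 0.20, adjusted p = 0.0423 by edgeR) lost its call under total-count scaling (0.30, adjusted p = 0.268) and without any 1 of KO 2, KO 4, KO 5, KO-Drug 2, KO-Drug 3 or KO-Drug 4. Without these libraries in turn the log2 change ran from 0.49 to 0.68 and the adjusted p from 0.0625 to 0.120. Stat5b changed by -0.04 (SE 0.15, adjusted p = 0.875; -0.38 with an adjusted p of 0.0499 under total-count scaling) and Zhx2 by 0.20 (SE 0.16, adjusted p = 0.395).

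Male-biased liver genes outside the family fell in the same comparison. Of 16 tested, 12 were called lower in KO than in Het and 0 higher (median log2 change -1.23), and with KO 2 and KO 4 alone 10 were lower and 0 higher. With all KO libraries, the shares over all tested genes were 17.7% lower and 23% higher. The fit with KO 2 and KO 4 alone called 4842 genes in either direction. Slco1a1, an organic anion transporter, stood between 770 and 1064 CPM in Het and at 91.9, 55.5, 7.41 and 76.5 CPM in KO 2, 4, 5 and 6 (log2 -4.02, SE 0.72, adjusted p = 0.000813 by edgeR). Nudt7, a peroxisomal coenzyme A hydrolase, fell by 2.57 on the log2 scale (SE 0.46), and Ugt2b1, a glucuronosyltransferase, by 1.90 (SE 0.31). In KO-Drug vs KO 4 of the 16 were higher and 0 lower, beside 8.8% higher and 11% lower among all tested genes.

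Of 14 tested female-biased genes, 8 were called higher in KO than in Het and 0 lower, and with KO 2 and KO 4 alone the counts were 5 and 0. With all KO libraries, 23% of all tested genes were called higher and 17.7% lower. The fit with KO 2 and KO 4 alone called 4842 genes in either direction. Cyp2a4, a steroid hydroxylase, stood between 16.4 and 53.3 CPM in Het, at 910, 698, 1922 and 1470 CPM in KO 2, 4, 5 and 6 and between 1380 and 1685 CPM in KO-Drug. KO 5 and KO 6 were the highest of the KO libraries, but KO 2 and KO 4 also lay above every Het library. Slc22a27, an organic anion transporter, had 3.61, 6.39, 83.3 and 26.3 CPM in the same order of KO libraries, and stood at no more than 0.510 CPM in Het. Ntrk2 had 33.9, 38.9, 25.8 and 30.9 CPM in that order, and at most 0.876 CPM in Het. Prom1 had 2.46, 9.10, 20.4 and 8.74 CPM, and at most 0.867 CPM in Het. The median log2 change of the list was 4.30 with all KO libraries and 0.07 with KO 2 and KO 4 alone. With KO 2 and KO 4 alone, which had no Xist count, the log2 ratio of the summed Mup level to Het was -3.56, beside -3.60 with all 4. The part that sex plays in the Mup values was not tested.

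Other lipocalins, the wider protein class of the Mups, did not share 1 direction. Of 8 tested, 2 were called lower in KO than in Het and 2 higher, and under total-count scaling 2 were lower and 5 higher. Under TMM 17.7% of all tested genes were called lower and 23% higher, so the TMM counts of lipocalins lie near the shares of all genes. Total-count scaling called 7355 of 13379 tested genes in either direction. Rbp4, the retinol carrier of plasma, fell by 1.61 on the log2 scale (SE 0.19, adjusted p = 3.69e-05 by edgeR), and C8g, a complement subunit, by 1.48 (SE 0.18). Lcn2, an acute-phase lipocalin that binds bacterial iron carriers, stood between 1.22 and 27.9 CPM in Het and at 1933, 2243, 149 and 249 CPM in KO 2, 4, 5 and 6, and it rose by 6.93 on the log2 scale (SE 1.37). Orm2, an acute-phase plasma protein, rose by 3.67 (SE 0.76). Of the 23 other abundant secreted proteins, 11 were lower in KO and 1 was higher. Albumin (Alb) fell by 1.16 (SE 0.31) and on log2(FPKM + 0.1) changed by -0.65 (adjusted p = 0.140 by limma). The means in Het and KO were 6754 and 2379 CPM for Apoa2, 9037 and 3372 CPM for Serpina1c, and 11034 and 3216 CPM for Serpina3k. Under total-count scaling 7 were lower and 4 higher.

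Many markers of other liver cells were higher in KO, where the Mup sum was lowest. Within KO, library KO 5 had the lowest Mup sum. It also had the lowest sum of each list of other liver cells, but the highest proliferation sum. All 10 macrophage and Kupffer cell markers were called higher in KO than in Het, and their sum ran from 393 to 522 CPM in Het, 889 to 2063 CPM in KO and 381 to 891 CPM in KO-Drug. Higher in KO were also 5 of 6 tested T and NK cell markers, 6 of 6 neutrophil markers, 5 of 9 stellate cell and matrix markers, 3 of 6 cholangiocyte markers, 3 of 6 sinusoidal endothelial markers and 6 of 6 proliferation genes. In this comparison 23% of all tested genes were called higher. The stellate cell and matrix sum ran from 367 to 522 CPM in Het, 544 to 1014 CPM in KO and 352 to 467 CPM in KO-Drug. The cholangiocyte sum ran from 19.8 to 26.7, 63.2 to 150 and 35.7 to 46.9 CPM in the same order of groups. The endothelial sum ran from 229 to 365, 300 to 340 and 266 to 334 CPM.

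The T and NK cell sum ran from 2.96 to 5.30 CPM in Het, 7.21 to 21.3 CPM in KO and 3.02 to 6.40 CPM in KO-Drug, and the neutrophil sum from 2.43 to 11.7, 16.7 to 98.8 and 11.1 to 36.1 CPM. No marker of these lists that was measured stood at 0 in every library. Of 11 hepatocyte markers 6 were lower in KO and 0 higher, where 17.7% of all tested genes were called lower. Under total-count scaling 2 were lower and 1 higher, where 7355 of 13379 tested genes were called in either direction. Their sum ran from 73751 to 137245 CPM in Het, 40351 to 70735 CPM in KO and 75504 to 95533 CPM in KO-Drug. The part of these cell types in the Mup values was not tested.

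Outside the family, the genes with the profile nearest to the Mup sum over the 12 libraries were Car3, Nox4, Hsd3b2, Ces4a, Susd4 and Sult2a8. Likeness was the root mean square difference between log2(CPM + 0.5) profiles, each centred on its own mean, over 11732 candidate genes. It was 0.411 for Car3, 0.571 for Nox4, 0.660 for Hsd3b2, 0.685 for Ces4a, 0.685 for Susd4 and 0.723 for Sult2a8, where the median candidate stood at 1.62. Of the members themselves Mup1 lay nearest to the sum (0.127), Mup20 at 1.75 and Mup11 at 2.50. The 12 points are libraries of 3 groups, so a shared difference between the groups alone makes profiles alike, and no test is given. The genes outside the family were picked by these same values. Their group differences thus follow from the choice, and are given below as values without p.

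Car3, a carbonic anhydrase abundant in male liver, stood between 2890 and 5128 CPM in Het, between 114 and 376 CPM in KO and at 381, 1885, 663 and 484 CPM in KO-Drug 1 to 4. It fell by 4.08 on the log2 scale in KO (SE 0.53). Its log2 difference between KO-Drug and KO was 1.76 (SE 0.48). That difference was 1.72 without KO 4, 1.02 without KO-Drug 2 and 1.76 with KO 2 and KO 4 alone. Sult2a8, a bile acid sulfotransferase, stood between 821 and 1403 CPM in Het, between 35.8 and 79.7 CPM in KO and between 199 and 494 CPM in KO-Drug, and none of the groups overlapped. It fell by 4.25 in KO vs Het (SE 0.34), and its KO-Drug vs KO difference was 2.90 (SE 0.32).

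Nox4, an NADPH oxidase, fell by 2.54 on the log2 scale in KO vs Het (SE 0.47), and Hsd3b2, a steroid dehydrogenase, by 3.63 (SE 0.37). Ces4a, a carboxylesterase at no more than 9.40 CPM in any library, fell by 4.20 (SE 0.64), and Susd4, a complement regulator that is also in the male-biased list, by 2.81 (SE 0.55). In KO-Drug vs KO the log2 changes of these 4 were 1.26 for Nox4, 0.35 for Hsd3b2, 0.76 for Ces4a and -0.0023 for Susd4.

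**Figure D5:**
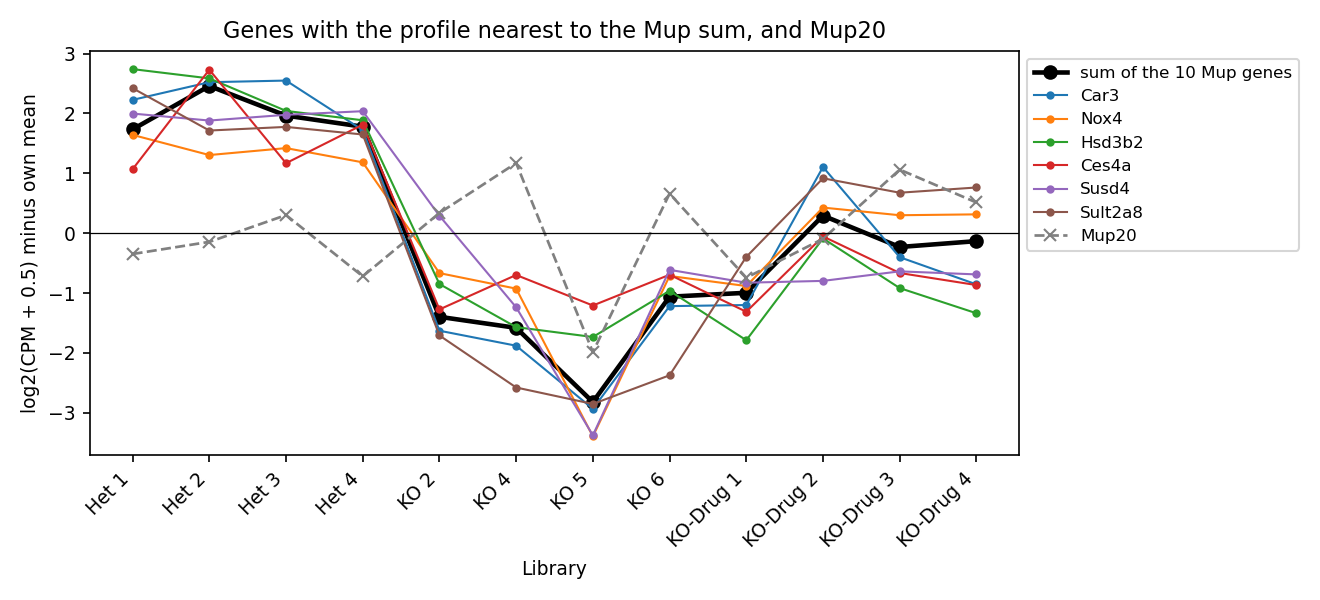
Profiles of the summed Mup level, the 6 genes nearest to it and Mup20 over the 12 libraries, as log2(CPM + 0.5) minus each profile's mean. The Mup sum and the 6 genes are high in the 4 Het libraries, and the sum is lowest in KO 5, whereas Mup20 (dashed) is highest in KO 4 and lowest in KO 5.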

How the data were processed

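RNA of flash-frozen whole liver was made into libraries with the Illumina TruSeq Stranded Total RNA kit, per the labels' protocols. Build mm10, StringTie 2.1.3b and FastQC 0.11.7 were used, per the submitters' processing notes. Not given in the sources used here: aligner, annotation release, use of strand and treatment of reads with several matches. The authors deposited whole-number read counts per gene, not normalized, per the file headers. The authors also deposited FPKM per gene, per the file headers. In the table, 3 columns without a name were not used.

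The filter filterByExpr, at a minimum of 10 counts and a total of 15, kept 13379 genes and set aside 11153. All 12 libraries entered 1 edgeR 4.0.16 quasi-likelihood fit (R 4.3.3, TMM), with 3 contrasts, two-sided tests, Benjamini-Hochberg adjustment over all tested genes and a call at adjusted p under 0.05. The fit was tested on simulated data first. Alternatives were DESeq2 1.42.0, total-count scaling, TMM without the Mup rows, no filter, limma 3.58.1 on log2(FPKM + 0.1) and log2(FPKM + 1), voom with sample weights, only the 2 groups compared, a replicate block, each library left out, and KO 2 with KO 4 alone. The alternatives for genes outside the family, and the sum over every row of the family, were chosen after the data had been seen.

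The members, the gene lists and the tests were chosen with earlier results of these data known. All 10 members are named, together with the other family rows, Atp7b, Xist and Ddx3y, the 6 genes most like the sum (mean of at least 1 CPM, no predicted or clone name), up to 4 genes per list with the smallest adjusted p in KO vs Het, and Ghr, Stat5b, Zhx2 and Bcl6. The libraries were taken as separate animals, so p-values measure the spread between them. Coding sequences come from GENCODE M21 and promoters from RefSeq (GRCm38.p6).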

Additional observations from a re-analysis of the deposited data

Results flagged for a closer look

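In 6 of the 105 groups of 4 libraries examined, 1 library stood apart by Dixon's ratio, the gap to its nearest neighbour divided by the range of the group, and chance alone gives this in about 1 of 20 groups. Mup11 in KO had a ratio of 0.838, with KO 2 at 11.02 CPM and the next at 3.03 CPM. Mup19, a family gene outside the 10, had 0.989 in KO, with KO 4 at 388 CPM and the next at 10.7 CPM. Ghr had 0.871 in Het, with Het 1 at 992 CPM and the next at 822 CPM. Sult2a8 also had 0.871 in Het, with Het 1 at 1403 CPM and the next at 896 CPM. Bcl6 had 0.882 in Het, with Het 4 at 57.4 CPM and the next at 21.7 CPM. Nox4 had 0.858 in KO-Drug, with KO-Drug 1 at 18.8 CPM, below the next at 43.3 CPM.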

How the results depend on the processing

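The direction of the summed Mup level held under every alternative run, and its size moved with the scaling. The log2 ratios of KO vs Het, KO-Drug vs KO and KO-Drug vs Het were -3.60, 1.39 and -2.21 under TMM, -3.07, 1.05 and -2.02 under total-count scaling, and -3.05, 1.03 and -2.02 on summed FPKM, where KO-Drug and KO overlapped. With 1 library left out the log2 ratio ran from -3.82 to -3.34 for KO vs Het, from 1.13 to 1.61 for KO-Drug vs KO and from -2.42 to -2.02 for KO-Drug vs Het. Over every family row under any name, it was -3.43, 1.43 and -2.004. With 1 library left out the members called lower in KO vs Het were 9 in each case, those higher in KO-Drug vs KO 4 to 8, and those lower in KO-Drug vs Het 8 to 9. The replicate block, with equal numbers treated as pairs, gave 9, 6 and 8 members in the same order. Over all genes the block gave 3693, 1741 and 2516 calls in place of 5448, 2654 and 2865. The numbers were not taken as pairs: over Het and KO-Drug the correlations of deviations were -0.07, 0.10, 0.10 and 0.16, and 6 of 8 libraries correlated best with their own number. Total-count scaling gave 7355 and 4256 calls in KO vs Het and KO-Drug vs KO, and the limma fits on FPKM gave 7601 and 7580 calls in KO vs Het and 4781 and 4923 in KO-Drug vs KO.

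Of 530 alternative values of single members, 504 kept their direction and side of the threshold, 14 lost a call, 7 gained one and 5 reversed. All 5 reversals were of Mup20 in KO-Drug vs KO, which lay at 0.20 with sample weights in limma voom and from -0.44 to 0.28 with 1 library left out. Of 1098 values of genes outside the 10, 1012 kept both, 40 lost a call, 20 gained one and 26 reversed. In KO-Drug vs KO, Mup19 ran from -3.71 to 0.29, Stat5b from -0.11 to 0.040, Bcl6 from -0.51 to 0.36, Hsd3b2 from -0.075 to 0.56 and Susd4 from -0.40 to 0.71 with 1 library left out. Stat5b was 0.041 with KO 2 and KO 4 alone. With sample weights in limma voom Bcl6 was 0.11 and Susd4 0.77. On log2(FPKM + 0.1) and log2(FPKM + 1) Hsd3b2 was -0.10 and -0.083, and Susd4 0.26 and 0.0077. Zhx2 under total-count scaling and on both FPKM scales was 0.20, 0.18 and 0.14 in KO vs Het, -0.14, -0.11 and -0.092 in KO-Drug vs KO and 0.067, 0.062 and 0.047 in KO-Drug vs Het, and -0.023 in KO-Drug vs KO with the replicate block. The cause of these shifts was not tested. Without Het 4, Lcn2 changed by 8.49 in KO vs Het, and Slc22a27 by 5.15 without KO 5.

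All 10 members, the lowest of them Mup11 and Mup17 in KO, had counts in every library. The 4 libraries per group, and the unknown assignment of shared reads, limit what can be said of single members.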

Other observations

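The table holds 11 further rows named Mup and a number, of which 10 were tested. In KO vs Het 7 were called lower and 2 higher by edgeR's quasi-likelihood test. Of all tested genes 40.7% were called there, 17.7% lower and 23% higher. In KO-Drug vs KO 6 were called higher and 0 lower, beside 8.8% higher and 11% lower among all tested genes. In KO-Drug vs Het 6 were lower and 1 higher, beside 8.45% lower and 13% higher. Mup4 was close to 0 in all libraries and was not tested, and Mup6, at no more than 16.2 CPM, was not called in any comparison.

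Mup18 ran against the family in the comparisons with Het: it stood at 39.6, 44.9, 13.4 and 49.1 CPM in Het 1 to 4, at 140, 103, 140 and 161 CPM in KO 2, 4, 5 and 6 and at 189, 222, 160 and 233 CPM in KO-Drug 1 to 4. It rose by 1.89 on the log2 scale in KO vs Het (SE 0.31, adjusted p = 0.000493 by edgeR) and was 2.45 higher in KO-Drug than in Het (SE 0.32, adjusted p = 0.000122). Neither knockout group overlapped Het. Mup19 was also called higher in KO vs Het (log2 4.90, SE 1.27, adjusted p = 0.00799), but KO 4 alone held 388 CPM, and without KO 4 the log2 change was 1.29 (adjusted p = 0.0357).

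A pair of rows chosen after their values were seen belong to the family under other names. Gm2083, described in the table as a major urinary protein, stood at 20889 ± 5436 CPM in Het, with 1899 ± 773 CPM in KO and with 5477 ± 1963 CPM in KO-Drug (SD, n = 4 each), a pattern close to that of Mup1. Gm21320, which RefSeq names Mup22, stood at 687, 751, 826 and 534 CPM in Het 1 to 4, at 302, 271, 180 and 155 CPM in KO 2, 4, 5 and 6 and at 674, 902, 1049 and 740 CPM in KO-Drug 1 to 4. It fell by 1.62 in KO vs Het (SE 0.23, adjusted p = 0.000194 by edgeR) and was 1.89 higher in KO-Drug than in KO (SE 0.24, adjusted p = 0.000583). KO-Drug overlapped Het, with a log2 change of 0.27 (SE 0.23, adjusted p = 0.455). Over all 23 family rows the share of counts was 13.5 ± 2.08% in Het, 1.81 ± 0.670% in KO and 3.86 ± 1.22% in KO-Drug.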
